A study of Mus musculus with 6 samples.

Results

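The collagen and laminin chains are the subunits of the main protein networks outside cells. Every gene whose symbol in the deposited isoform table is Col with a type and chain number, or Lama, Lamb or Lamc with a chain number, was taken: 54 genes, of which 43 encode collagen chains and 11 laminin chains, out of 27694 genes with a value. The RNA came from C57/Bl6 mouse neural stem cell cultures, 3 labelled vimentin knock out (KO) and 3 labelled wild type (WT), 6 in all. All were untreated and grown in serum-free medium with FGF-2 and EGF at 20 ng/mL, with heparin at 5 ug/mL where cells grew as monolayers. The labels do not say which cultures were monolayers, which vimentin allele was used, how old the animals were, or whether the 3 cultures of a group came from separate animals, so p-values measure the spread between these cultures, which may be technical. Levels are FPKM, a measure of fragments that corrects for the length of the transcript and the size of the library, summed over the isoforms of a gene.

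Collagens are trimers of alpha chains wound into a triple helix, which needs a glycine at regular steps along each chain. Fibrillar collagens form the cables of connective tissue, type IV collagen forms the sheet of basement membranes, and fibril-associated collagens sit on the surface of fibrils. Laminins are cross-shaped trimers of an alpha, a beta and a gamma chain that assemble on cells through integrins and dystroglycan and start a basement membrane. In the brain such membranes lie under the pia and around vessels, and laminin-rich matrix also touches the stem cells that line the ventricles.

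The libraries held the equal of 28.4 to 36.2 M reads of 150 bases. Vim, the targeted gene, was higher in the libraries labelled KO (650, 732 and 624 FPKM) than in those labelled WT (191, 179 and 186 FPKM; log2 fold change 1.84, limma adjusted p = 0.0013), which goes against the label, so directions below refer to the labels and to nothing more. Library WT 2 held 16.0% of its FPKM in intronic, intergenic and run-on isoforms, against 3.75% to 5.27% in the other 5, and the gene sums leave those isoforms out. Neural stem cell markers summed to 1100 to 1200 FPKM in libraries labelled KO and 889 to 1120 FPKM in those labelled WT, with Fabp7 at 358 FPKM or more in each. Of 7 oligodendrocyte-lineage markers 4 reached 1 FPKM, and their sum moved with the labels, at 324 to 372 FPKM for KO and 515 to 577 FPKM for WT, while that of 6 astrocyte markers overlapped (401 to 452 FPKM for KO, 152 to 637 FPKM for WT, where Aldoc alone ran between 6.40 and 488 FPKM). Of those 6, Gfap fell to 24.4 to 29.6 FPKM in libraries labelled KO, against 75.8 to 80.7 FPKM in those labelled WT (limma adjusted p = 0.0020), and Aqp4 to 2.30 to 2.80 FPKM, against 10.6 to 11.2 FPKM in those labelled WT (0.00239). Slc1a2 went the other way, at 61.0 to 81.6 FPKM in libraries labelled KO and 53.9 to 58.9 FPKM in those labelled WT, and was not called (limma adjusted p = 0.157). In S100b, Aldoc and Gjb6 the groups overlapped. The part of these cell types in the results was not tested. Sox2, a defining marker of these cells whose locus is shared with Sox2ot, was listed at 0 in all 3 libraries labelled KO and in WT 2, and at 53.3 and 28.4 FPKM in WT 1 and WT 3. It was not called (limma adjusted p = 0.212), and in the fit without WT 2 it passed (0.0063). These listed values of 0 were not read as absence of Sox2. Collagen-rich cell types left little trace: of the 8 fibroblast or meningeal markers in the table, 2 reached 1 FPKM in any library and the sum was 0.318 to 6.21 FPKM in libraries labelled KO and 2.13 to 5.63 FPKM in those labelled WT, with Dcn, Pdgfrb and Twist1 under 0.1 FPKM throughout. None of the 7 pericyte or smooth muscle markers and none of the 6 endothelial markers in the table reached 1 FPKM, and their sums were at most 0.853 and 0.945 FPKM.

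Of the 54 genes, 20 had a mean of at least 1 FPKM over the 6 libraries and entered the test: 15 collagens and 5 laminins. Lama5, Col9a3, Col12a1 and Col16a1 rose, Lama4 and Col27a1 fell, and the other 14 did not pass. That is 6 of 20 (30.0%), where 6.90% of all 12080 tested genes passed (limma on log2(FPKM + 1), called where p after Benjamini-Hochberg adjustment was under 0.05). The 4 that rose stand against a background of 3.65% called higher, and the 2 that fell against 3.25% called lower. In 16 of the 20 the 3 KO values did not overlap the 3 WT values, which was so for 33.3% of all tested genes. The median log2 fold change was 0.11 over the 20 genes, 12 of them positive and 8 negative, and -0.02 over all tested genes. Without WT 2 the same 6 genes passed. In each fit without another library 3 passed, Lama4, Lama5 and Col9a3. In bulk RNA, fewer cells of a type and less RNA per cell cannot be told apart.

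**Figure D1:**
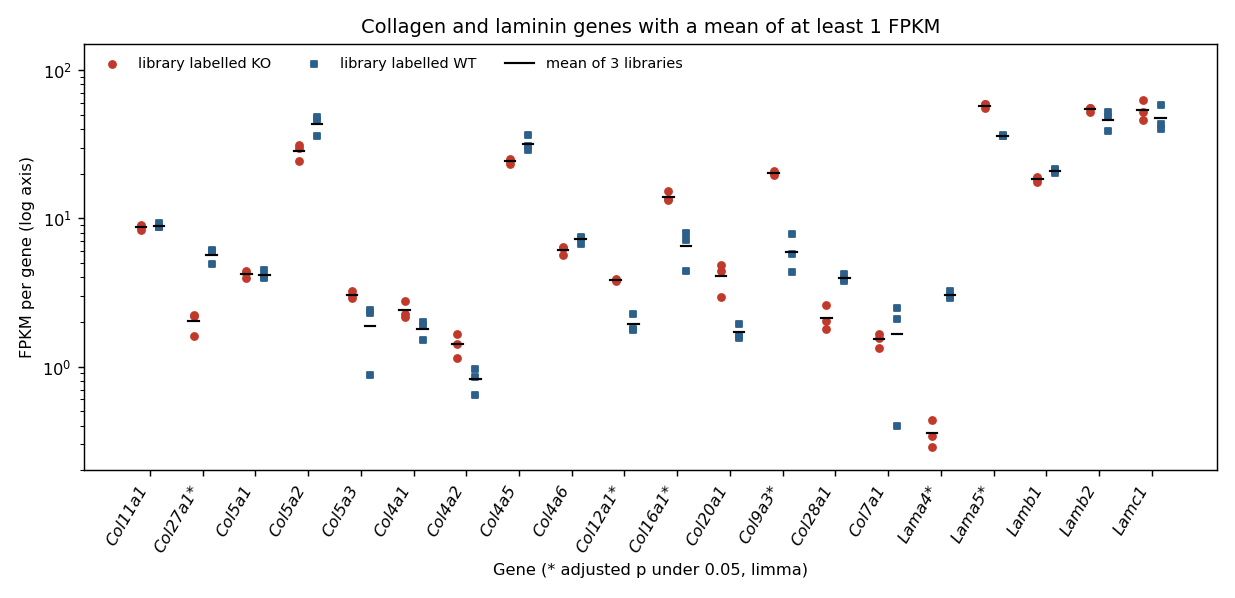
FPKM per gene (log axis) of the 20 collagen and laminin genes with a mean of at least 1 FPKM, with a circle for each library labelled KO, a square for each labelled WT and a line at the mean of 3. The KO circles lie apart from the WT squares for the 6 genes with an asterisk (adjusted p under 0.05, limma), by the most for Lama4, at 0.285 to 0.437 FPKM against 2.92 to 3.22 FPKM.

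**Figure D2:**
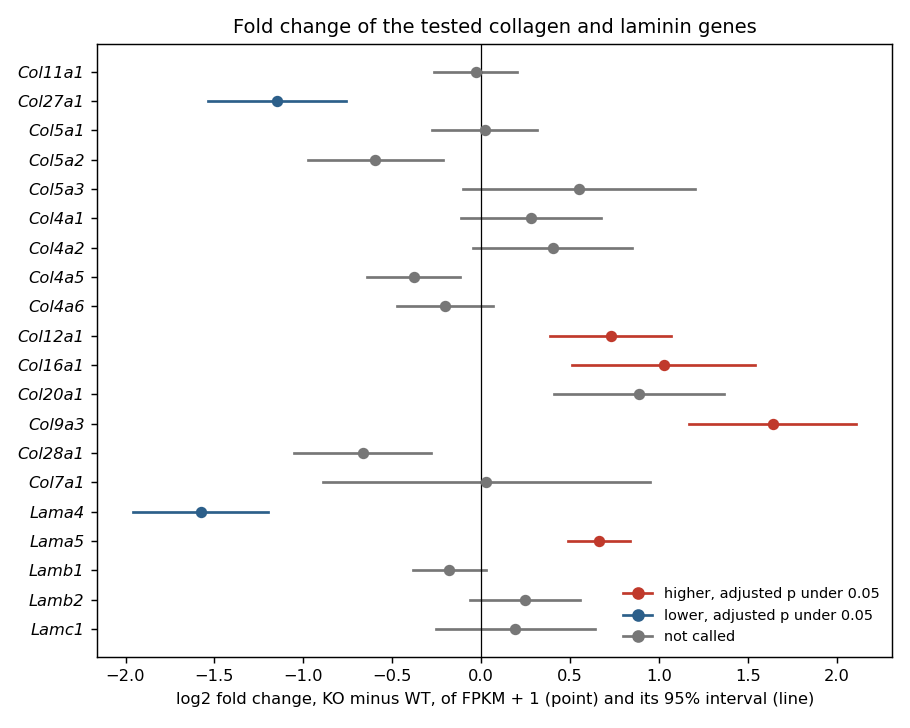
Fold change of the same 20 genes, as the log2 difference of FPKM + 1 between libraries labelled KO and WT, with the point for the estimate and the line for its 95% interval. Red marks the 4 genes called higher, blue the 2 called lower and grey the 14 not called, among which the intervals of Col5a2, Col4a5, Col20a1 and Col28a1 also leave out 0.

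The promoters of the called genes are shown because these genes moved both ways. The RefSeq table (GRCm38.p6) held an entry for 39 of the 54 genes and for 3 of the 6 called: Lama5 and Col16a1, which rose, and Col27a1, which fell. Each line gives the 250 bases before the RefSeq start, on the gene's strand. Capitals mark, on either strand, a CCAAT box, the core of the GC box bound by Sp factors (GGGCGG) or a match to the TATA box (searched as TATAAA).
Lama5: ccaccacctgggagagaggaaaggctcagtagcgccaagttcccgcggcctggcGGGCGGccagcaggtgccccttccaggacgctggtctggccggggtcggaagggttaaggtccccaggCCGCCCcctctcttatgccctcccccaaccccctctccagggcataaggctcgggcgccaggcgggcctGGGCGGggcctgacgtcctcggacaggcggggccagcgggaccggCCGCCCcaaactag
Col16a1: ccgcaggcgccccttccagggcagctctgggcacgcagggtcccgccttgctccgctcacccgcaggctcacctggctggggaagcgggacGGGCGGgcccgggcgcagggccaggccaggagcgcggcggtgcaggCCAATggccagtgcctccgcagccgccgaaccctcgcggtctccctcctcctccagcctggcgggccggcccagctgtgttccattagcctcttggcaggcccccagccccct
Col27a1: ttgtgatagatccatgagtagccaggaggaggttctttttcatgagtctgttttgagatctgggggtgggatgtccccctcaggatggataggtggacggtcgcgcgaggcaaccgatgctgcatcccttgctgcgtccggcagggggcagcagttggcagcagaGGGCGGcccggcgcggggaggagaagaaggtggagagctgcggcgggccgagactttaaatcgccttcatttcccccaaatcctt
They lie at chr2:180225860-180226109 on the minus strand (Lama5), chr4:130047590-130047839 on the plus strand (Col16a1) and chr4:63215162-63215411 on the plus strand (Col27a1). The leading isoform in the deposited table started at the RefSeq start for Lama5 and Col27a1, and 11 bases from it for Col16a1. The Lama5 window held 4 GGGCGG matches, and those of Col16a1 and Col27a1 1 each, a match that 32.7% of the 32851 RefSeq windows of this length also held. CCAAT was found in Col16a1 only among the 3 (33.8% of all windows), and TATAAA in none of them (12.4% of all windows). Their GC content was 72.4% for Lama5, 75.6% for Col16a1 and 59.6% for Col27a1, where the median window had 52.4%.

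Among the laminins, the alpha chains moved apart. Lama5, the alpha chain of laminins found in most mature basement membranes, rose, and Lama4, the alpha chain typical of vessel walls and other mesenchymal settings, fell. Lama5 had 55.1, 59.1 and 58.8 FPKM in libraries labelled KO, against 35.7, 36.6 and 35.8 FPKM in those labelled WT. The lowest KO value was thus well above the highest WT value, and the WT values lay closer together than the KO values. Means were 57.7 ± 2.23 FPKM for KO and 36.0 ± 0.448 FPKM for WT (SD, n = 3 each), a log2 fold change of 0.66 (standard error, SE, 0.07; limma adjusted p = 0.00818). Lama5 is a minus-strand gene at 180176347 to 180225887 of chromosome 2, in the coordinates of the deposited table, whose build is not named there; 95.9% of its isoforms also in GENCODE (GRCm38) had identical positions. Its 79-exon isoform, ENSMUST00000015791, had 47.3, 51.7 and 44.7 FPKM in libraries labelled KO and 16.5, 26.0 and 30.5 FPKM in those labelled WT, and most of the remainder was assigned to assembled isoforms of 77 or 78 exons. With annotated transcripts only, the fold change of Lama5 was 0.99 and did not pass (limma adjusted p = 0.113), and the same value with the highest isoform only did not pass either (adjusted p = 0.17).

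Lama4 had 0.285, 0.341 and 0.437 FPKM in libraries labelled KO, against 2.92, 2.98 and 3.22 FPKM in those labelled WT. By the depth and the transcript lengths these values stand for about 42, 55 and 72 reads in the libraries labelled KO and 502, 557 and 555 in those labelled WT. All 3 KO values lay far below every WT value, and the groups were tight. The KO mean was 0.354 ± 0.0770 FPKM and the WT mean 3.04 ± 0.157 FPKM (SD, n = 3 each), a ratio of 0.117. Lama4 reached the filter of 1 FPKM only through the libraries labelled WT, and without the filter it also passed (limma adjusted p = 0.0237). With the filter its log2 fold change was -1.58 (SE 0.15, limma adjusted p = 0.00665), on a scale that understates the change of a low gene: with a pseudocount of 0.1 it was -2.80 (adjusted p = 0.00973), and with 5 it was -0.59 (adjusted p = 0.00592). The 38-exon isoform, ENSMUST00000019992, carried 81.6% to 85.8% of the gene's FPKM in libraries labelled KO and 67.8% to 99.3% in those labelled WT. Lama4 is a plus-strand gene at 38965515 to 39110188 of chromosome 10.

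Set beside the other alpha chains, Lama5 made up 99.3%, 99.1% and 98.9% of alpha-chain FPKM in libraries labelled KO, against 92.2%, 92.1% and 91.6% in those labelled WT. Lama4 made up 0.514% to 0.736% in libraries labelled KO and 7.51% to 8.22% in those labelled WT. Nearly all alpha-chain RNA was thus Lama5 in each library, and the summed alpha-chain level was 58.2 ± 2.34 FPKM in libraries labelled KO and 39.2 ± 0.458 FPKM in those labelled WT (SD, n = 3 each). Lama1, the alpha chain of early embryonic basement membranes, was at 0.0584 to 0.158 FPKM, Lama2, the main chain of muscle and Schwann cell laminin, at 0.0173 to 0.0588 FPKM, and the epithelial chain Lama3 at 0.00673 FPKM or less.

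The beta and gamma partners did not pass. Lamb2 had 55.4, 52.3 and 55.9 FPKM in libraries labelled KO and 52.0, 38.6 and 48.0 FPKM in those labelled WT, with a 95% interval of the log2 fold change from -0.06 to 0.55. Its lowest value was that of WT 2, and the KO values lay just above the highest WT value. Lamb1 had 19.1, 17.5 and 18.5 FPKM in libraries labelled KO and 21.5, 20.1 and 21.2 FPKM in those labelled WT (interval -0.38 to 0.03). Lamc1, the gamma chain of nearly all laminins, had 46.1, 52.1 and 63.1 FPKM in libraries labelled KO and 43.5, 58.0 and 40.0 FPKM in those labelled WT (interval -0.25 to 0.64), and the groups of this gene sum overlapped. Those of its 28-exon isoform did not, at 43.4, 50.8 and 46.8 FPKM for KO and 35.2, 25.2 and 37.2 FPKM for WT. A 3-exon isoform of Lamc1 held 32.6 FPKM in WT 2 and 15.6 FPKM in KO 3. With the highest isoform only, Lamc1 did not pass either. Adjusted p was 0.295 for Lamb2, 0.253 for Lamb1 and 0.565 for Lamc1 (limma). Lamb2 made up 74.2% to 74.9% of beta-chain FPKM in libraries labelled KO and 65.8% to 70.7% in those labelled WT. Lamb3, a beta chain of epithelial laminin, and Lamc3 stayed at 0.332 FPKM or less in every library. The laminins with a mean above 1 FPKM over the 6 libraries were thus 2 alpha, 2 beta and 1 gamma chain. Of these, Lama4 was under 1 FPKM in each library labelled KO.

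**Figure D3:**
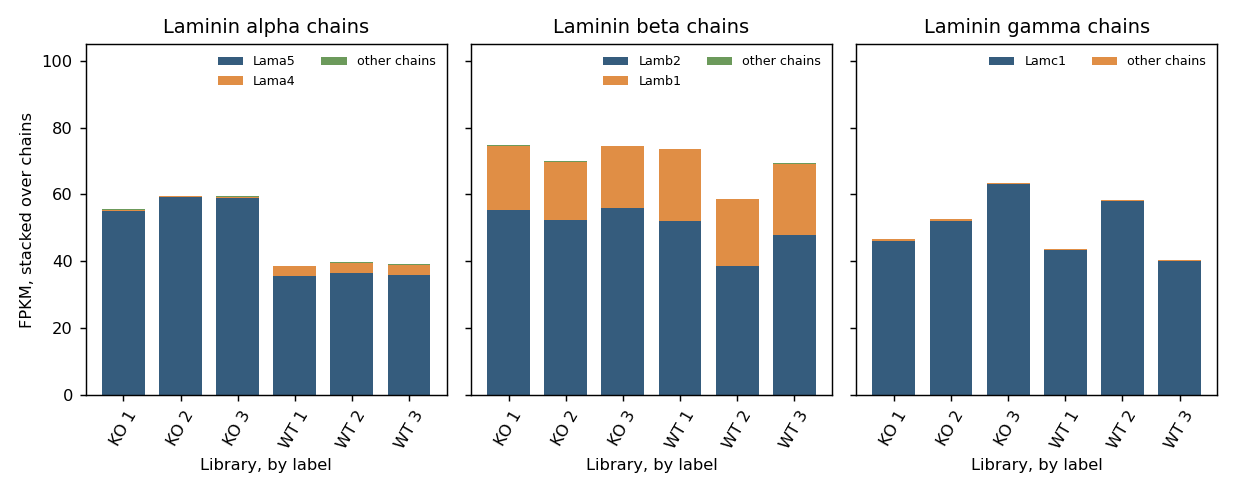
FPKM of the laminin chains, stacked within each of the 6 libraries, for alpha, beta and gamma chains, with the chains under a mean of 1 FPKM pooled as other chains. The alpha bars reach 55.5 to 59.6 FPKM in libraries labelled KO and 38.8 to 39.7 FPKM in those labelled WT, where the Lama4 segment is also visible, while the beta and gamma bars of the groups overlap.

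Fibril-associated collagens, which bind to the surface of fibrils rather than form them, were the family with the most calls: 3 of the 4 tested rose, none fell and 1 did not pass, of 9 in the table. Of all tested genes, 3.65% were called higher. Col9a3 alone of the 3 kept its call in every fit without 1 library. Their summed level was 42.6, 44.2 and 43.7 FPKM in libraries labelled KO and 19.2, 19.1 and 18.6 FPKM in those labelled WT. Col9a3, a chain of cartilage and vitreous collagen type IX, had 19.6, 21 and 20.2 FPKM in libraries labelled KO, against 4.36, 7.79 and 5.71 FPKM in those labelled WT. The KO values clustered closely and every one was above every WT value by a wide margin. Means were 20.2 ± 0.724 FPKM for KO and 5.95 ± 1.73 FPKM for WT (SD, n = 3 each), a log2 fold change of 1.64 (SE 0.19, limma adjusted p = 0.00911), and the call held without any 1 library (adjusted p at most 0.0485). Col9a3 is a plus-strand gene at 180597253 to 180622189 of chromosome 2.

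Type IX collagen is built from the products of Col9a1, Col9a2 and Col9a3, and the other chains did not follow Col9a3. Col9a2 had 0.244, 0.614 and 0.408 FPKM in libraries labelled KO and 1.60, 1.73 and 1.28 FPKM in those labelled WT. Col9a1 had 0.371, 0.615 and 0.641 FPKM in libraries labelled KO and 0.994, 1.11 and 1.03 FPKM in those labelled WT. In both genes every KO value was below every WT value, the opposite order to Col9a3. Both missed the level needed for the test, Col9a2 by little (mean 0.980 FPKM), and in the fit without a filter, where 2.11% of genes were called, their log2 fold changes were -0.84 (SE 0.19, adjusted p = 0.111) and -0.41 (SE 0.15, adjusted p = 0.304), neither called by limma. Col9a3 made up 97.0%, 94.5% and 95.1% of type IX FPKM in libraries labelled KO and 62.7%, 73.2% and 71.2% in those labelled WT.

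The Col9a3 isoforms differed as well. The 32-exon isoform ENSMUST00000103059, on chromosome 2 at 180598222 to 180622185, had 11.1, 11.8 and 11.1 FPKM in libraries labelled KO and was listed at 0 in each labelled WT. The libraries labelled WT had their Col9a3 FPKM mostly in shorter annotated isoforms and in assembled ones, such as the 31-exon MSTRG.29721.1 at 1.43, 1.11 and 1.15 FPKM. That assembled isoform had 3.30, 1.78 and 2.11 FPKM in libraries labelled KO. A listed 0 can be a failed estimate of an isoform, so it was not read as absence.

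**Figure D4:**
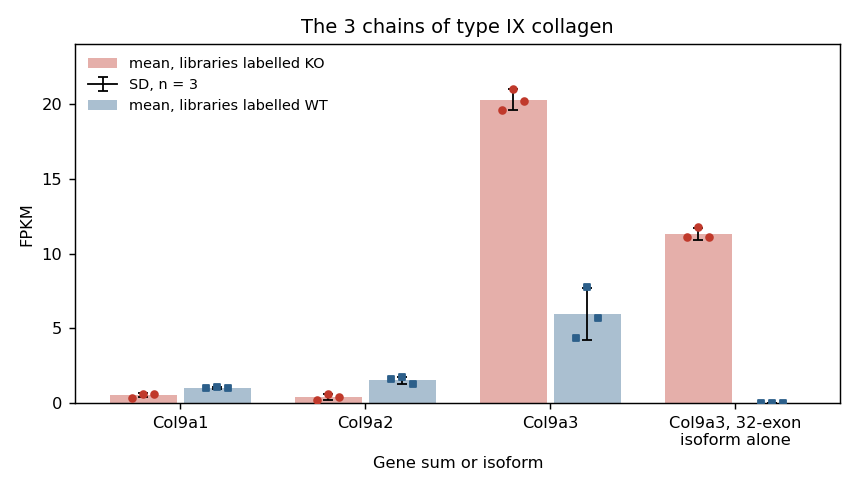
FPKM of the 3 type IX collagen genes and of the 32-exon Col9a3 isoform alone, with a bar for the mean, a line for the SD and a point per library (n = 3 per group). Col9a3 and its isoform are higher in the libraries labelled KO, while the 3 KO points of Col9a1 and of Col9a2, at 0.244 to 0.641 FPKM, lie below their WT points, at 0.994 to 1.73 FPKM.

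Col16a1 and Col12a1 rose less. Col16a1, a minor collagen that links matrix to integrins, had 15.3, 13.2 and 13.5 FPKM in libraries labelled KO, against 7.98, 4.43 and 7.15 FPKM in those labelled WT. Its lowest value, 4.43 FPKM, was that of WT 2, and the groups did not overlap. The log2 fold change was 1.03 (SE 0.21, limma adjusted p = 0.0454). Col16a1 lies on chromosome 4 (plus strand, 130047829 to 130099414), and its leading isoform, an assembled one of 71 exons, held 15.6% to 90.1% of its FPKM over the 6 libraries. Col12a1, which binds type I fibrils in tendon and other dense tissue, had 3.88, 3.86 and 3.78 FPKM in libraries labelled KO, against 1.78, 2.25 and 1.76 FPKM in those labelled WT. Here the KO values had an SD of 0.0528 FPKM (n = 3), and the log2 fold change was 0.73 (SE 0.14, limma adjusted p = 0.0386). The 66-exon isoform of Col12a1, ENSMUST00000071750, had 2.58, 2.49 and 2.77 FPKM in libraries labelled KO and 1.11, 1.29 and 1.31 FPKM in those labelled WT, the same order as the gene (chromosome 9, minus strand, 79598991 to 79718831). Both calls were lost without KO 1, KO 2, KO 3, WT 1 or WT 3 (adjusted p 0.0590 to 0.145 for Col16a1 and 0.0919 to 0.136 for Col12a1) and held without WT 2 (0.0308 and 0.0351). Median-ratio scaling ended the call of Col16a1 (adjusted p = 0.0575), as did scaling to a common total (0.0598) and a fit without a mean-variance trend (0.0513). The fit without a filter ended both (0.0903 and 0.111). Both were also lost with annotated transcripts only (0.462 for Col16a1 and 0.1005 for Col12a1), with every class of isoform (0.0631 and 0.0965) and with the highest isoform only (0.277 and 0.203).

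Col20a1, a further fibril-associated collagen, had 2.96, 4.42 and 4.82 FPKM in libraries labelled KO and 1.95, 1.62 and 1.55 FPKM in those labelled WT, and narrowly missed the threshold (log2 fold change 0.89, SE 0.20, limma adjusted p = 0.0549). Of the other settings, it passed only in the fit without a mean-variance trend (adjusted p = 0.0465). In every library but WT 2 nearly all of its FPKM came from long assembled isoforms that begin at 180967172 to 180967238 on chromosome 2, in a locus assembled together with the neighbouring gene Arfgap1, so its value is uncertain. In WT 2 a 15-exon assembled isoform held 0.817 FPKM. Col14a1, Col19a1 and Col22a1 of the same family stayed at 0.365 FPKM or less in every library.

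Of the 11 fibrillar collagens, 5 were tested: Col27a1 fell, none rose and 4 did not pass, where 3.25% of all tested genes were called lower. Col27a1, a fibrillar chain of developing cartilage, had 1.62, 2.24 and 2.18 FPKM in libraries labelled KO, against 6.03, 4.89 and 6.10 FPKM in those labelled WT. Every KO value was less than the lowest WT value, and the KO mean of 2.02 ± 0.339 FPKM was 0.355 times the WT mean of 5.68 ± 0.679 FPKM (SD, n = 3 each). The log2 fold change was -1.15 (SE 0.16, limma adjusted p = 0.0153). Col27a1 lies on chromosome 4 (plus strand, 63214004 to 63334991). That call held without WT 2 (adjusted p = 0.0246) and was narrowly lost without each other library, KO 1, KO 2, KO 3, WT 1 and WT 3 (0.0524 to 0.0582). It was also lost with annotated transcripts only (0.115), with every class of isoform (log2 fold change -1.79, adjusted p = 0.0976) and with the highest isoform only (0.229). Its FPKM was spread over several partial isoforms: the 16-exon ENSMUST00000148751 had 0.875, 0.140 and 1.14 FPKM in libraries labelled KO and 2.27, 3.00 and 2.07 FPKM in those labelled WT, and the 61-exon ENSMUST00000036300 had 0.511, 0.935 and 0.561 FPKM in libraries labelled KO and 0.372, 1.39 and 0.0792 FPKM in those labelled WT.

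Type V and type XI collagens set the width of heterotypic fibrils. Col5a2 was the collagen with the highest mean level, at 31.0, 24.2 and 29.8 FPKM in libraries labelled KO and 46.1, 48.3 and 36.0 FPKM in those labelled WT. The groups did not overlap, yet Col5a2 did not pass (log2 fold change -0.60, 95% interval -0.97 to -0.22, limma adjusted p = 0.0795). Its partner chain Col5a1 had 4.39, 4.26 and 3.98 FPKM in libraries labelled KO and 4.50, 3.93 and 4.0 FPKM in those labelled WT, with a log2 fold change of 0.02 (interval -0.28 to 0.32). Per kilobase, Col5a2 RNA was 5.68 to 7.50 times Col5a1 RNA in libraries labelled KO and 8.98 to 12.3 times in those labelled WT. Col5a3 had 3.03, 3.24 and 2.91 FPKM in libraries labelled KO and 2.41, 0.881 and 2.31 FPKM in those labelled WT (log2 fold change 0.55, limma adjusted p = 0.266). It passed with annotated transcripts only (1.28, adjusted p = 0.0498), and without WT 2, its lowest library, the value was 0.27 (adjusted p = 0.264). Short assembled isoforms held 2.04 FPKM in WT 1 and 1.81 FPKM in WT 3, while WT 2 held the 67-exon isoform alone. By depth and transcript lengths, the Col5a3 sums stand for about 437, 511 and 547 reads in libraries labelled KO. In those labelled WT they stand for about 180, 167 and 208. Col11a1 stood at 8.34, 8.81 and 9.0 FPKM in libraries labelled KO and 8.74, 9.36 and 8.70 FPKM in those labelled WT, with an interval of -0.27 to 0.20.

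The chains of the abundant connective-tissue collagens were near 0 in these cultures. Col1a1 had 0.182 FPKM or less in each library, Col1a2 0.0220 or less, Col3a1 0.121 to 0.150 and the cartilage chain Col2a1 0.0904 or less. The tested type V and XI chains were thus measured far above the type I, II and III chains with which they share fibrils in other tissues. Col11a2 was at 0.525 to 0.821 FPKM in libraries labelled KO and 0.881 to 0.938 FPKM in those labelled WT, and Col24a1 at 0.00974 FPKM or less.

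Of the 6 type IV collagen genes, 4 were tested and none passed in limma, with 1 at an unadjusted p under 0.05 (Col4a5). These genes lie in head-to-head pairs. Col4a5, whose product joins the networks of kidney, lung and skin, had 24.3, 23.4 and 25.0 FPKM in libraries labelled KO and 36.3, 29.1 and 30.6 FPKM in those labelled WT. All KO values were below the WT values (log2 fold change -0.38, 95% interval -0.64 to -0.12, adjusted p = 0.0962). Its neighbour Col4a6 had 6.39, 6.34 and 5.67 FPKM in libraries labelled KO and 7.34, 7.50 and 6.75 FPKM in those labelled WT (-0.20, interval -0.47 to 0.07, adjusted p = 0.321). The RefSeq starts of this pair on chromosome X are 1343 bases apart.

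The chains found in basement membranes of all tissues, Col4a1 and Col4a2, were lower in level. Col4a1 had 2.28, 2.76 and 2.16 FPKM in libraries labelled KO and 1.88, 1.99 and 1.52 FPKM in those labelled WT (log2 fold change 0.28, interval -0.11 to 0.67, adjusted p = 0.342). Col4a2 had 1.67, 1.42 and 1.15 FPKM in libraries labelled KO and 0.970, 0.854 and 0.640 FPKM in those labelled WT (0.40, interval -0.04 to 0.85, adjusted p = 0.241). Their RefSeq starts on chromosome 8 lie 21 bases apart on opposite strands, and in both the KO values were above the WT values, the reverse of the X-linked pair. With every class of isoform the Col4a2 value turned to -0.38 (adjusted p = 0.797). Col4a5 and Col4a6 together made up 86.4% to 89.0% of type IV FPKM in libraries labelled KO and 91.2% to 92.9% in those labelled WT. Col4a3 and Col4a4, the partners of Col4a5 in the kidney filter, were at 0.0651 to 0.664 FPKM.

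Other collagens were few. Col28a1, related in its domains to type VI collagen and known in mice from peripheral nerve, had 2.02, 1.78 and 2.62 FPKM in libraries labelled KO and 4.21, 3.76 and 3.90 FPKM in those labelled WT. Its groups were clearly apart, and it missed the threshold (log2 fold change -0.67, SE 0.16, limma adjusted p = 0.0643). Of the other settings, it passed only in the fit without a mean-variance trend (adjusted p = 0.0467). The 35-exon isoform ENSMUST00000115537 had 1.11, 1.01 and 1.21 FPKM in libraries labelled KO and 2.84, 2.48 and 2.79 FPKM in those labelled WT. Col7a1, the chain of anchoring fibrils in skin, had 1.33, 1.67 and 1.57 FPKM in libraries labelled KO and 0.398, 2.49 and 2.09 FPKM in those labelled WT (adjusted p = 0.975). Its full 119-exon isoform accounted for 0.401 to 0.519 FPKM in libraries labelled KO and 0.388 to 0.444 FPKM in those labelled WT, and outside WT 1 the rest came from short partial isoforms (its locus also holds Mir711). Among type VI chains, Col6a1 had 0.726, 1.03 and 0.909 FPKM in libraries labelled KO and 0.832, 1.00 and 0.620 FPKM in those labelled WT, while Col6a2 and Col6a3 were at 0.291 FPKM or less and Col6a4, Col6a5 and Col6a6 at 0.121 FPKM or less. Col10a1, the collagen of hypertrophic cartilage, Col8a2 and Col26a1 stayed at 0.243 FPKM or less, the transmembrane collagens Col13a1, Col23a1 and Col25a1 at 0.213 FPKM or less, and Col15a1 at 0.0428 FPKM or less.

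In all, 34 of the 54 genes had a mean under 1 FPKM. Of these, 27 were below 0.5 FPKM and 11 below 0.1 FPKM in every library, 4 reached 1 FPKM in at least 1 library, and none was listed at 0 in all 6. The filter fell between Col9a2, at a mean of 0.980 FPKM, and Col4a2, at 1.12 FPKM. In the limma fit without a filter none of the 34 was called, and 4 had an unadjusted p under 0.05: Col9a1, Col9a2, Col6a2 and Col19a1. Summed over all 43 genes, collagen FPKM was 132 ± 3.30 in libraries labelled KO and 134 ± 8.66 in those labelled WT (SD, n = 3 each), a difference within the spread of the libraries. Col5a2 and Col4a5 made up 37.3% to 41.3% of it in libraries labelled KO and 53.2% to 57.9% in those labelled WT. The 11 laminin genes summed to 177, 182 and 197 FPKM in libraries labelled KO and 156, 157 and 149 FPKM in those labelled WT, so that laminin RNA was above collagen RNA in every library.

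Lama5, Col9a3 and Col20a1 lie within 0.842 Mb of each other near the end of chromosome 2, at 180176347 to 181018067, and all had higher values in the libraries labelled KO. Between and around them in that stretch, 9 other genes were tested, none was called higher and Nkain4 was called lower (log2 fold change -1.22, limma adjusted p = 0.00497). The median log2 fold change of these 9 was -0.10. This stretch was picked after the values were seen.

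The enzymes, partners and receptors of these chains were described through 6 lists of 137 genes, of which 93 were tested and 17 (18.3%, against 6.90% of all genes) were called, 11 higher and 6 lower; 6 were called with annotated transcripts only. Among proteins that fold and modify collagen, 2 of 21 tested rose, 1 fell and 18 did not pass, with a median log2 fold change of 0.21. Sparc, a collagen-binding glycoprotein that also acts in its secretion, had 65.7, 69.4 and 68.7 FPKM in libraries labelled KO, against 148, 170 and 138 FPKM in those labelled WT. It fell by 1.15 on the log2 scale (SE 0.10, limma adjusted p = 0.00497). Mia3, which loads procollagen into transport carriers, rose to 71.0 ± 0.252 FPKM in libraries labelled KO, against 52.3 ± 2.72 FPKM in those labelled WT (SD, n = 3 each), by 0.44 (SE 0.07, adjusted p = 0.0275), and the prolyl 3-hydroxylase family gene P3h3 by 0.63 (SE 0.12, adjusted p = 0.0362). Both of these calls were lost without KO 1, KO 2, KO 3, WT 1 or WT 3 (adjusted p at most 0.103 for Mia3 and 0.131 for P3h3), and P3h3 shares an assembled locus with Gpr162 and turned to -0.43 with annotated transcripts only.

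Among proteins that process and crosslink collagen, 2 of 7 tested rose, 1 fell and 4 did not pass (median 0.24). Adamts14, a protease that trims procollagen ends, had 4.41, 4.65 and 4.43 FPKM in libraries labelled KO, against 1.17, 1.15 and 0.984 FPKM in those labelled WT (log2 fold change 1.39, SE 0.13, limma adjusted p = 0.00658). Pxdn, the peroxidase that crosslinks type IV collagen, had 17.4, 16.9 and 18.1 FPKM in libraries labelled KO, against 33.3, 47.3 and 34.9 FPKM in those labelled WT (-1.08, SE 0.15, adjusted p = 0.0150), and its call was lost without KO 1, KO 2 or KO 3 (at most 0.0669). Loxl2, an oxidase that crosslinks collagen, had 2.59, 3.02 and 1.95 FPKM in libraries labelled KO, against 0.964, 0.881 and 0.877 FPKM in those labelled WT, and its call (0.87, limma adjusted p = 0.0459) was lost without any 1 library (0.0751 to 0.153). Loxl2 reached the filter only through the libraries labelled KO, and without the filter it did not pass (adjusted p = 0.136).

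Partners in fibrils and basement membranes held the most calls: 5 of 16 tested rose, 2 fell and 9 did not pass (median 0.35). Smoc1, a basement membrane protein, fell by 0.94 on the log2 scale (34.8 ± 1.51 FPKM in libraries labelled KO and 67.6 ± 1.35 FPKM in those labelled WT; adjusted p = 0.00354). Npnt, a ligand of integrin alpha 8 in basement membranes, rose to 9.23 ± 0.150 FPKM in libraries labelled KO, against 3.37 ± 0.354 FPKM in those labelled WT (1.23, adjusted p = 0.00633). The microfibril gene Fbn2 rose to 15.6 ± 0.551 FPKM in libraries labelled KO, against 5.86 ± 0.780 FPKM in those labelled WT (1.28, adjusted p = 0.00633, SD and n = 3 for each, limma). Fibronectin (Fn1) rose by 0.51 (adjusted p = 0.0286), a call lost without KO 1, KO 2, KO 3, WT 1 or WT 3 (at most 0.106). Hspg2 (perlecan, 0.59), Fbln2 (0.98) and Fras1 (-1.30) also passed, with adjusted p of 0.0398 to 0.0451, and Fbln2 turned to -0.22 with annotated transcripts only. Hspg2 lost its call without any 1 library, Fbln2 in all fits but that without WT 1, and Fras1 in all but that without WT 2 (at most 0.140).

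Of the receptors, 2 of 20 tested rose, 2 fell and 16 did not pass (median -0.19). The 2 discoidin domain receptors, tyrosine kinases that bind collagen, moved in opposite directions. Ddr2, which binds fibrillar collagens, had 93.2, 84.8 and 92.1 FPKM in libraries labelled KO, against 34.4, 42.2 and 37.7 FPKM in those labelled WT (log2 fold change 1.22, SE 0.10, limma adjusted p = 0.00411). Ddr1, which also binds type IV collagen, had 60.2, 58.9 and 54.8 FPKM in libraries labelled KO, against 82.5, 99.1 and 113 FPKM in those labelled WT (-0.74, SE 0.13, adjusted p = 0.0309), and its call was lost without KO 1, KO 2, KO 3, WT 2 or WT 3 (at most 0.107). Itga6, the alpha subunit of laminin-binding integrins, had 65.2, 63.4 and 67.0 FPKM in libraries labelled KO, against 40.2, 35.4 and 38.9 FPKM in those labelled WT (0.76, SE 0.08, adjusted p = 0.0081). Adgrg1, an adhesion receptor that binds type III collagen, fell by 0.49 on the log2 scale (SE 0.08, limma adjusted p = 0.0235), a call lost without KO 1, KO 2, KO 3, WT 1 or WT 3 (at most 0.102). With annotated transcripts only, the Ddr2 value was 0.73 and did not pass (adjusted p = 0.629).

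The 14 tested genes that build the laminin-binding sugar of dystroglycan held no call in limma, with 1 at an unadjusted p under 0.05 (median 0.05). Pomt1 had 20.2 ± 2.39 FPKM in libraries labelled KO and 15.4 ± 0.863 FPKM in those labelled WT (SD, n = 3 each; limma adjusted p = 0.12). The 15 tested regulators of collagen transcription held none either, with 1 at an unadjusted p under 0.05 and a median of -0.36, 4 of them with a positive value. The TGF-beta receptors had the smallest p: Tgfbr2 had 2.77 ± 0.444 FPKM in libraries labelled KO and 4.25 ± 0.191 FPKM in those labelled WT (adjusted p = 0.107), and Tgfbr1 had 5.55, 6.05 and 6.12 FPKM in libraries labelled KO and 10.8, 12.8 and 6.10 FPKM in those labelled WT (adjusted p = 0.219). Without WT 3, Tgfbr1 passed (-0.89, adjusted p = 0.0395).

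**Figure D5:**
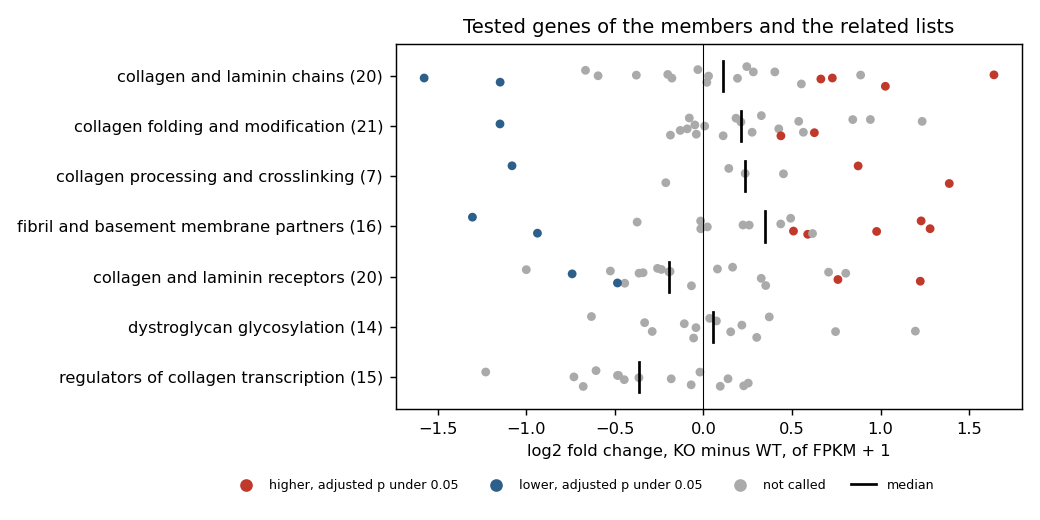
Log2 fold change (KO minus WT, FPKM + 1) of each tested gene of the collagen and laminin chains and of the 6 related lists, with the number tested in brackets and a line at the median. Called genes, red for higher and blue for lower, lie on both sides of 0 in the chains, the folding, processing, partner and receptor lists, and none is called in the lower 2 lists.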

How the data were processed

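The authors deposited 1 isoform table with FPKM and with coverage, the mean reads per base as an unscaled signal, for 125793 isoforms in 6 libraries. Per the submitters' processing notes, cutadapt, FastQC, Bowtie2, TopHat2 and StringTie were used, with versions not given there. Ribosomal RNA had been removed and the libraries were strand-specific, per the labels' protocols. The columns lettered NT were matched to the WT libraries by elimination and number, and 0 value columns were left unused. The sources used here do not name the genome build. Of isoforms also in GENCODE release M21, 95.9% had identical coordinates.

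FPKM was summed per symbol over reference isoforms and assembled ones that overlap a gene's exons (95506 isoforms, 180 of the 222 that belong to the 54 genes). The ratio of coverage to FPKM gave each library's aligned bases, and reads per gene were estimated from it. Limma 3.58.1 in R 4.3.3 was fitted with a mean-variance trend to log2(FPKM + 1) of genes with a mean of at least 1 FPKM, KO against WT, with Benjamini-Hochberg adjustment over all genes tested and a threshold of 0.05. It was checked on simulated data. Intervals are at 95%. Python 3.11.15 was used with numpy 2.4.6, pandas 2.3.3 and scipy 1.17.1 for tables and matplotlib 3.10.9 for plots.

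The members, gene lists and tests were chosen with earlier results of these data known. The rule named Vim, each called or tested member, and from each related list the called genes of smallest p, at most 4, or in a list with no call the 2 genes of smallest p. Single values of 1 member and of 1 listed gene are not reported here. Cell type markers, and Hspg2, Fbln2, Fras1 and Nkain4, were named after their values were seen, as were members under the level of the test. Alternatives changed the pseudocount (0.1, 5), the filter (none, 5 FPKM), the scaling, the trend, a replicate block, the isoforms summed, and left out each library.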

Additional observations from a re-analysis of the deposited data

How the results depend on the processing

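Against 6 collagen and laminin genes called, 3 were called with a filter of 5 FPKM (which leaves out Lama4, Col27a1 and Col12a1), 3 with reference transcripts only (2 of the 6, and Col5a3), 3 with every class code of isoform (intronic, intergenic and run-on included) and 2 with the highest isoform only, and 3 to 6 when 1 library was left out. Against 17 related genes called, the number called was 10 with no filter, 6 with reference transcripts only and 1 with the highest isoform only, and 7 to 17 with 1 library left out, of which 7 to 13 were among the 17. Against 833 genes called in all, the number called was 235 with reference transcripts only (220 of them among the 833), 542 with every class code (522) and 128 with the highest isoform only (109), and 281 to 768 with 1 library left out (242 to 582), where fewer samples enter. The cause of the other losses was not tested. With a replicate block, limma called 0 members (10 at an unadjusted p under 0.05), 0 related genes (30) and 15 of all genes (2435). Same-numbered libraries had correlations of deviations of 0.0119, -0.0031 and 0.065. KO 1 and KO 2 correlated best with another number, and KO 3 with its own, which was the largest value of all pairs. With 3 libraries per group such small values cannot decide whether same-numbered libraries were paired, so this stays unknown. Values that changed sign were those of Col4a2 with every class code (-0.38), Col5a1 without KO 1 (-0.0062), WT 2 (-0.0105) and WT 3 (-0.0006; range without 1 library -0.0105 to 0.0676), Col7a1 with a pseudocount of 5 (-0.0157), every class code (-0.48) and without KO 2 (-0.014) or WT 1 (-0.38; range -0.38 to 0.2783), Col11a1 scaled to a common total (0.0136) and with the highest isoform only (0.0168), and P3h3 (-0.43) and Fbln2 (-0.22) with reference transcripts only. Of 697 values of 42 named genes under an alternative, 532 kept direction and side of the threshold, 149 lost a call, 4 gained one and 12 changed sign.
At these depths 3 reads in a transcript of 2000 bases are worth 0.0414 to 0.0529 FPKM. Most chains here have longer transcripts, so their values near 0.05 FPKM rest on somewhat more reads, though still few. In KO 1 these were about 6 for Col8a2 (0.0491 FPKM) and 15 for Lama2 (0.0556 FPKM).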

Other observations

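Isoforms of several chains were apportioned differently between libraries of the same group. The annotated 67-exon isoform of Col5a3, ENSMUST00000004201, had 2.09, 2.38 and 2.44 FPKM in libraries labelled KO and 0.340, 0.881 and 0.275 FPKM in those labelled WT. Its share of the gene's FPKM was 68.8%, 73.4% and 83.8% in libraries labelled KO and 14.1%, 100% and 11.9% in those labelled WT. For Lamc1, the 28-exon isoform ENSMUST00000027752 held 94.0%, 97.5% and 74.2% of the gene's FPKM in libraries labelled KO and 80.8%, 43.4% and 92.9% in those labelled WT. The leading assembled isoform of Col4a5, MSTRG.54434.1, held 47.4%, 75.4% and 55.2% in libraries labelled KO and 32.4%, 57.1% and 69.3% in those labelled WT. These isoform values were not tested.

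Col17a1, a transmembrane collagen of epithelia, had 1.31 FPKM in KO 1, 0.0246 and 0.0857 FPKM in KO 2 and KO 3, and 0.0495, 0.0580 and 0.292 FPKM in the libraries labelled WT. Col18a1, the precursor of endostatin in basement membranes, had 0.181, 0.179 and 0.141 FPKM in libraries labelled KO and 0.791, 0.304 and 0.350 FPKM in those labelled WT, and was under the level of the test. The 42 intronic and run-on isoforms that carry a collagen or laminin symbol and were left out summed to 5.09 to 10.2 FPKM in libraries labelled KO and to 13.6, 92.4 and 7.98 FPKM in WT 1, WT 2 and WT 3.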
